A study of Mus musculus with 12 samples.

Results

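The genes described here are the MHC class II genes of the mouse and their transactivator, 10 of the 23413 genes in the deposited count table, chosen by symbol and not by their values. They are Ciita, the transactivator gene; H2-Aa, H2-Ab1 and H2-Eb1, which encode chains of the classical class II molecules; Cd74, the invariant chain; H2-DMa, H2-DMb1 and H2-DMb2, which encode the DM chaperone; and H2-Oa and H2-Ob, which encode its modulator DO. Their RNA was compared over 6 groups of 2 libraries each, 12 libraries in all, from alveolar macrophages, which live in the air spaces of the lung and were recovered by lavage. Fresh cells were from wild-type mice at 4 or 10 weeks of age and from mice labelled VDR knockout at the same ages. The other libraries held wild-type cells kept for 24 h in culture, either untreated or given vitamin D3 at 50 nM. The age of the mice that gave the cultured cells, the strain and the form of the Vdr deletion were not given in the sources used here. VDR is the nuclear receptor through which vitamin D3 acts on transcription.

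Class II molecules carry peptides from endocytosed proteins to the cell surface, where CD4+ T cells read them. The alpha and beta chains assemble with the invariant chain in the endoplasmic reticulum, and DM later exchanges the remnant of the invariant chain for peptide in endosomes, a step that DO restrains. CIITA binds no DNA itself. It is recruited to class II promoters by RFX, CREB and NF-Y proteins sitting on the X and Y boxes, and its own transcription is the usual switch of the whole set, through interferon gamma in macrophages. Alveolar macrophages are known for low class II levels beside those of dendritic cells and B cells.

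The promoters of the set are shown because most of those available here share the letters of the Y box, for which the members were not chosen. RefSeq promoter windows of 300 bases (build GRCm38.p6, 250 bases before and 50 after a gene's start) were held for 7 of the 10 members, and not for Ciita, Cd74 or H2-Ab1. H2-DMa had 2 windows. The windows were searched on both strands for the Y box, TGATTGG, and for an X box pattern of 4 parts (AAC after any base, any 3 bases, TGA, and G after any base), written with these promoters in view. The matches found did not overlap each other. Below, the 150 bases before the start site are given 5′ to 3′ along the gene, with the X box match and, downstream of it, the Y box match in capitals.
H2-Eb1 (chr17:34305717-34305866, plus strand): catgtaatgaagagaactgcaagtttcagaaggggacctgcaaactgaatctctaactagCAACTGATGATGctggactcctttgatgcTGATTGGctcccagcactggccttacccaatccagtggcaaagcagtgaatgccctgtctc
H2-Aa (chr17:34287824-34287973, minus strand): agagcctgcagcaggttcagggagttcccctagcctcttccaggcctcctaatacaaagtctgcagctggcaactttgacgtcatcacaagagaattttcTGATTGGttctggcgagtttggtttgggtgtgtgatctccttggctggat
H2-DMb1 (chr17:34153041-34153190, plus strand): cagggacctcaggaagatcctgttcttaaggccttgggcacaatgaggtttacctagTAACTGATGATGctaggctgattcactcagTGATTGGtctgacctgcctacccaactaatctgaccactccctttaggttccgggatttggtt
H2-DMb2 (chr17:34145099-34145248, plus strand): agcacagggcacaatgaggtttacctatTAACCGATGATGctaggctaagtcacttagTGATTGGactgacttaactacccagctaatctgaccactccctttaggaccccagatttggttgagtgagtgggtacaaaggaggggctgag
H2-DMa, first window (chr17:34122682-34122831, plus strand): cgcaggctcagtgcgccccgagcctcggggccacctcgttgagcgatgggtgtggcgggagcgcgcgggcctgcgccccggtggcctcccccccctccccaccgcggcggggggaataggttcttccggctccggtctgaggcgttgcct

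The Y box letters were present in the windows of 6 of the 7 members, against 7.82% of all 32851 promoter windows of that length. The X box pattern was present in 4 of them, H2-Eb1, H2-DMb1, H2-DMb2 and H2-Ob, against 2.88% of all windows. Those 4 held both motifs, which 0.21% of all windows did. Because the X box pattern was written with these promoters in view, its presence in them was partly set in advance. The shares for the X box and for both motifs therefore do not test whether members hold it more often. In H2-Eb1 the X box match ran from base -90 to -79 before the start site and the Y box from -61 to -55. In H2-DMb1 they lay at -93 to -82 and -63 to -57, and in H2-DMb2 at -122 to -111 and -92 to -86. The Y box lay at -50 to -44 in H2-Aa and at -45 to -39 in H2-Oa, whose windows held no match to the X box pattern as written. The letters caactttgacg upstream of the Y box of H2-Aa hold the parts of that pattern with a shorter gap between AAC and TGA. That form was not searched for. Neither of the 2 windows held for H2-DMa had either motif. Whether these cells use those starts or another start of H2-DMa was not examined, so the promoter in use may not have been searched. The matches are a description of the letters, and no binding was measured.

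Total counts per library ran from 10409572 to 23233674, so that 1 count was worth 0.0904 CPM (depth-scaled counts) or less. CPM were computed with TMM factors and do not account for gene length, so levels are compared between libraries and not between genes. All 14 alveolar macrophage markers listed for these cells had counts in every library, among them Chi3l3 at 5044 to 34323 CPM and Pparg, the regulator of their identity, at 140 to 262 CPM. Vdr, the targeted gene, was at 56.5 to 127 CPM in fresh wild-type libraries and still at 31.2 to 84.2 CPM in those labelled knockout. The description codes of knockout replicate 1 and wild-type replicate 2 at 10 weeks name the other genotype. Groups below follow the genotype label, and results with that pair exchanged are given where they matter. Replicate 2 of both 10-week groups was from female mice by its Xist level (800.3 and 787.3 CPM, against under 1 CPM in the other 10 libraries). The replicates of each 10-week group thus came from different mice. For the other groups the labels give replicate numbers and do not state whether these are separate animals. Each p-value therefore measures only how far these libraries spread.

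Over the 6 groups, all 10 members differed at an adjusted p under 0.05 (edgeR quasi-likelihood F test, Benjamini-Hochberg adjustment over 12748 genes), where 58.2% of all genes tested did. Most members fell into 2 patterns, described in turn. Ciita, Cd74 and the classical chains spread widely between ages, while H2-DMa, H2-DMb2, H2-Oa and H2-Ob differed mostly between fresh and cultured cells. H2-DMb1 showed both, with a rise with age and both cultures below all fresh groups.

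**Figure D1:**
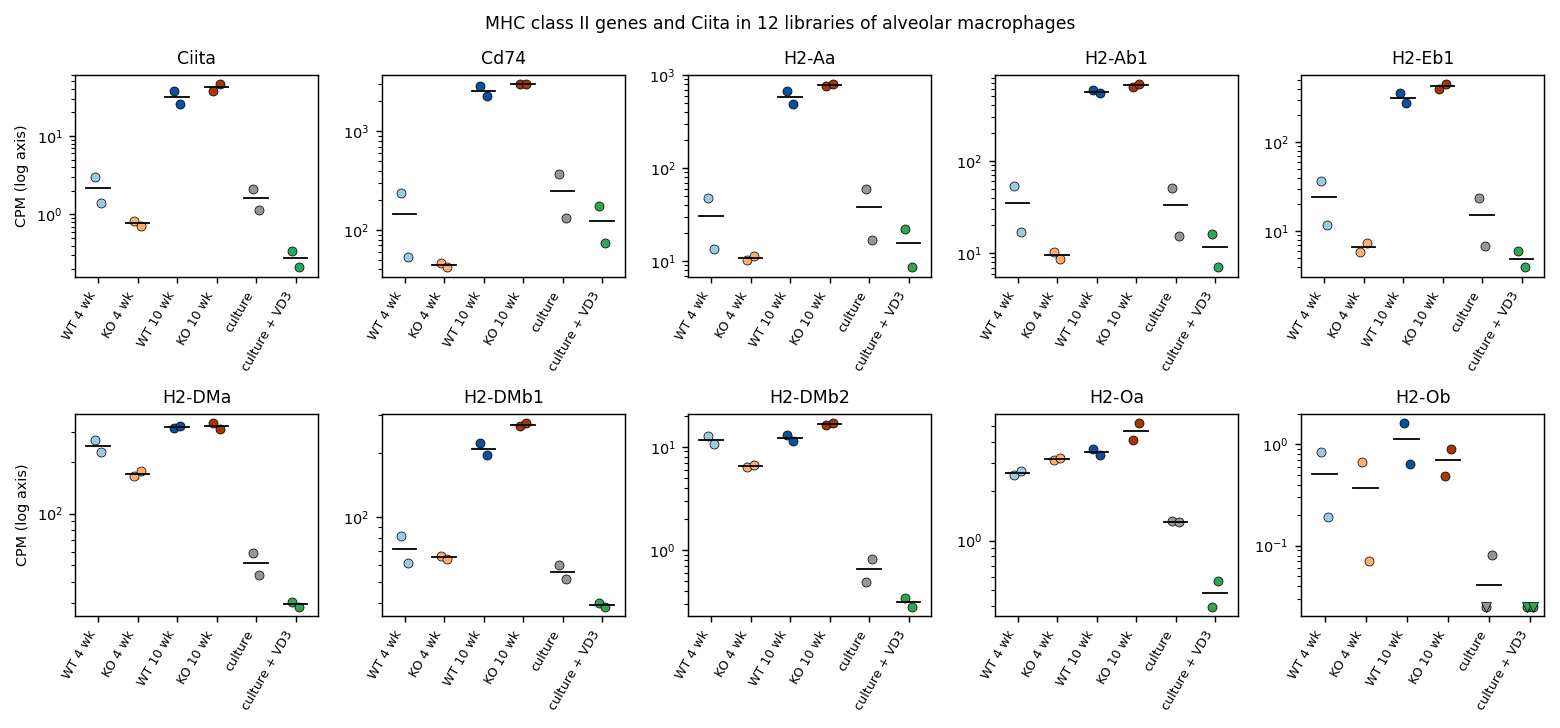
CPM of each of the 10 genes (log axis, one panel each) in the 12 libraries, by group; points are libraries, bars are group means, and triangles stand for libraries with 0 counts of H2-Ob, drawn at the foot of the axis. The 10-week libraries of both genotypes stand above all others for Ciita (25.5 to 46.4 CPM), Cd74, H2-Aa, H2-Ab1, H2-Eb1 and H2-DMb1.

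Age was compared in fresh cells. From 4 to 10 weeks, 6 of the 10 members rose in wild type, where 1.4% of all genes rose, and 8 of 10 rose in the libraries labelled knockout, where 4.89% did. The transactivator, the invariant chain and all 3 classical chains rose more than 13-fold in wild type and more than 50-fold in the libraries labelled knockout. The ages did not overlap for 8 members in wild type and 9 in the libraries labelled knockout, where 27.8% and 29.4% of all genes were higher without overlap. In bulk RNA, a larger share of class II-expressing cells and more class II RNA per cell cannot be told apart.

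Ciita was at 3.004 and 1.40 CPM (43 and 29 counts) in 4-week wild-type libraries and at 37.5 and 25.5 CPM at 10 weeks. The libraries labelled knockout held 0.830 and 0.701 CPM (15 and 10 counts) at 4 weeks and at 37.4 and 46.4 CPM at 10 weeks. Every 10-week library, male or female, thus lay above every 4-week one, by a margin far wider than the gap between replicates. The rise was 14.8-fold in wild type (log2 3.89 ± 0.34 SE, edgeR adjusted p = 0.000534) and 53.7-fold in the libraries labelled knockout (5.75 ± 0.39, edgeR adjusted p = 2.29e-05). By p-value Ciita ranked 2 and 3 of the 12748 genes tested.

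Cd74, whose product escorts class II chains to endosomes, was at 238 and 53.3 CPM in 4-week wild type and at 2860 and 2281 CPM at 10 weeks. The libraries labelled knockout held 45.9 and 41.8 CPM at 4 weeks and 3016 and 3025 CPM at 10 weeks. The 4 libraries of 10 weeks were close together, whereas 4-week wild-type replicate 1 stood apart from the other 3 of its age. Cd74 rose 17.7-fold in wild type (log2 4.15 ± 0.67, edgeR adjusted p = 0.00965) and 68.8-fold in the libraries labelled knockout (6.11 ± 0.74, edgeR adjusted p = 0.00075).

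H2-Aa, the alpha chain of I-A, was at 47.9 and 13.5 CPM in 4-week wild type, at 10.3 and 11.5 CPM in 4-week libraries labelled knockout, and at 494 to 810.4 CPM in the 4 libraries of 10 weeks. H2-Ab1, its beta chain partner, was at 53.4 and 17.2 CPM, at 10.2 and 8.76 CPM, and at 540.02 to 687 CPM in the same order. H2-Eb1, the beta chain of I-E, was at 36.3 and 11.8 CPM, at 5.92 and 7.36 CPM, and at 277 to 454 CPM. For each of the 3 chains the ages did not overlap, and 4-week wild-type replicate 1 was again the highest 4-week library. In wild type H2-Aa rose 19.3-fold, H2-Ab1 16.1-fold and H2-Eb1 13.4-fold (edgeR adjusted p = 0.00659, 0.0051 and 0.00474). In the libraries labelled knockout they rose 72.2-fold, 69.1-fold and 64.3-fold (edgeR adjusted p = 0.000628, 0.000295 and 0.000196). Ranked by fold among all genes tested, Ciita, Cd74 and these chains took places 33 to 41 in wild type and 18 to 26 in the libraries labelled knockout.

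The chaperone genes moved less. H2-DMb1, a DM beta chain gene, was at 81.7 and 61.4 CPM in 4-week wild type and at 221 and 195 CPM at 10 weeks, a rise of 2.92-fold (log2 1.54 ± 0.14, edgeR adjusted p = 0.000534). In the libraries labelled knockout it was at 66.3 and 64.0 CPM and then at 266 and 275 CPM, a rise of 4.15-fold (2.05 ± 0.14, edgeR adjusted p = 2.29e-05). Its replicates lay close together and its ages did not overlap.

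H2-DMa, the DM alpha chain gene, was at 268 and 229 CPM in 4-week wild type and at 317 and 325 CPM at 10 weeks, without overlap. That difference did not pass (log2 0.37 ± 0.13, edgeR adjusted p = 0.173), while in the libraries labelled knockout H2-DMa rose from 166 and 176 CPM to 339 and 311 CPM (0.92 ± 0.14, edgeR adjusted p = 0.00255). H2-DMb2, the other DM beta chain gene, was at 12.6 and 10.7 CPM in 4-week wild type and at 13.1 and 11.4 CPM at 10 weeks, so its ages overlapped (0.08 ± 0.20, edgeR adjusted p = 0.854). In the libraries labelled knockout it rose from 6.31 and 6.66 CPM to 16.2 and 17.0 CPM (1.35 ± 0.20, edgeR adjusted p = 0.00282). H2-DMb1 and H2-DMb2 share 22.7% and 21.2% of the 50-letter words of their transcripts (GENCODE M21), so reads may have been split between them and the value of each is uncertain to that extent.

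H2-Oa, the DO alpha chain gene, was at 2.52 to 3.22 CPM in the 4-week libraries and at 3.32 to 5.24 CPM at 10 weeks, with log2 differences of 0.43 ± 0.31 in wild type and 0.56 ± 0.30 in the libraries labelled knockout (edgeR adjusted p = 0.486 and 0.27). H2-Ob, the DO beta chain gene, held 1 to 33 counts in each fresh library. In wild type it had 41 counts at 10 weeks, 33 and 8 in its 2 libraries, and 16 at 4 weeks, a ratio of CPM of 2.72 with an exact 95% interval of 1.496 to 5.20 that covers counting error only. It did not pass with age in either genotype (edgeR adjusted p = 0.533 in wild type and 0.674 in the libraries labelled knockout). The median log2 difference of the members was 2.64 in wild type and 3.90 in the libraries labelled knockout, against -0.0031 and 0.013 over all genes tested. All 8 rises in the libraries labelled knockout passed with any library left out. In wild type the fold moved with the spread of the 4-week pair: without replicate 1 the log2 rise of Cd74 was 5.59, that of H2-Aa 5.43, of H2-Ab1 5.03, of H2-Eb1 4.74 and of Ciita 4.48, and without replicate 2 it was 3.44, 3.62, 3.40 and 3.13 for Cd74 and the chains. H2-Aa then missed the threshold (edgeR adjusted p = 0.053), as did Cd74 without 10-week wild-type replicate 1 (edgeR adjusted p = 0.0508).

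**Figure D2:**
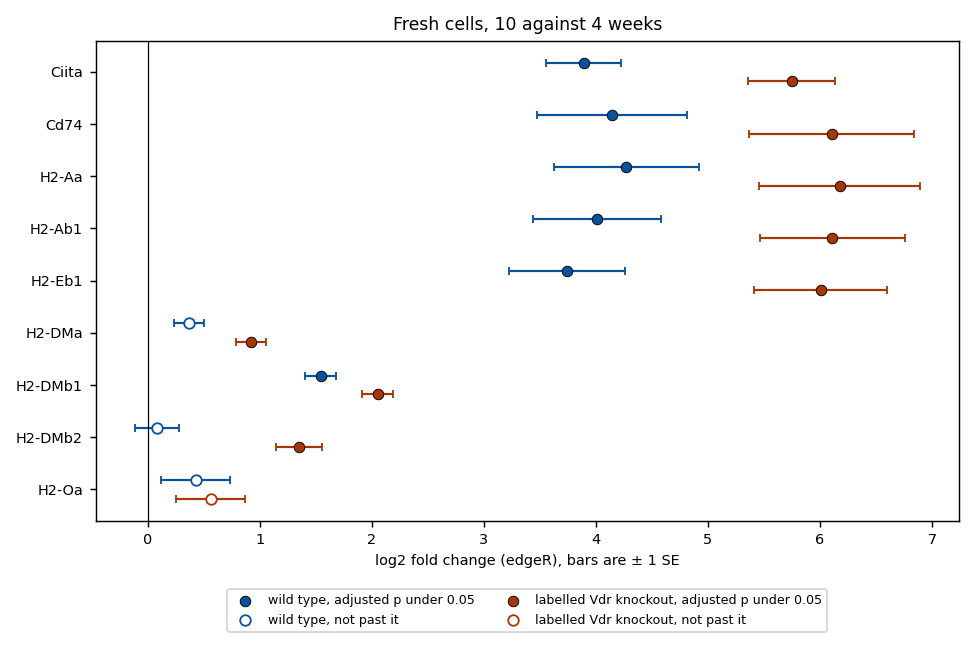
Log2 fold change from 4 to 10 weeks (x axis) of 9 genes in wild type (blue) and in libraries labelled Vdr knockout (brown), with bars of ± 1 SE; filled points passed an adjusted p of 0.05 in edgeR. Ciita, Cd74 and the 3 classical chains lie between 3.74 and 4.27 in wild type and between 5.75 and 6.17 in the libraries labelled knockout, and the DM and DO genes lie lower; H2-Ob is left out for its low counts.

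Whether the rise differed between genotypes was tested as an interaction in the same fit. There 0 of the 10 members passed at an adjusted p under 0.05 in edgeR and 0 in DESeq2, where 0.188% of all genes did in edgeR. At an unadjusted p under 0.05, 8 members passed toward a larger rise in the libraries labelled knockout, against 4.17% of all genes. The lowest adjusted p was that of H2-DMb2, whose rise was larger by log2 1.27 ± 0.28 (edgeR adjusted p = 0.161). For Ciita the difference was 1.86 ± 0.53 (edgeR adjusted p = 0.342), with a 95% interval of 0.69 to 3.02. Without 4-week wild-type replicate 1 the difference was 1.25 for Ciita, 0.50 for Cd74, 0.73 for H2-Aa and 1.07 for H2-Ab1, and without replicate 2 it was 2.35, 2.67, 2.56 and 2.71.

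Genotype alone gave no call at either age in the edgeR fit of all libraries. At 10 weeks 0 of the 10 members passed in edgeR and 0 in DESeq2 (0.11% of all genes passed in edgeR), and 1, H2-DMb1, had a higher value at an unadjusted p under 0.05 (4.86% of all genes did). Values were higher in the libraries labelled knockout for 9 members. Ciita was 1.32-fold higher, with a 95% interval of the log2 difference from -0.19 to 1.001 (edgeR adjusted p = 0.711), and H2-DMb1 was 1.30-fold higher (edgeR adjusted p = 0.348). Replicate 1 of both genotypes had equal Ciita, 37.5 and 37.4 CPM, and the difference lay in replicate 2. With the pair of conflicting libraries exchanged, 7 of the 10 members changed sign, Ciita to log2 -0.06 among them.

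At 4 weeks the values leaned the other way. They were lower in the libraries labelled knockout for 9 of the 10 members, and 7 were lower without overlap, where 24.6% of all genes were. The number called lower was 0 in edgeR, where 0.196% of all genes were, and 1 in DESeq2, H2-DMa (adjusted p = 0.0153). At an unadjusted p under 0.05, 7 members were lower, against 5.65% of all genes. The largest log2 differences were those of H2-Ab1, -1.87 ± 0.58 (edgeR adjusted p = 0.212), and H2-Eb1, -1.84 ± 0.55 (edgeR adjusted p = 0.197). Cd74 differed by -1.73 ± 0.62 and H2-Aa by -1.48 ± 0.64 (edgeR adjusted p = 0.29 and 0.387). Ciita differed by -1.45 ± 0.46 (edgeR adjusted p = 0.224), from 72 counts in wild type and 25 in the libraries labelled knockout.

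H2-DMa and H2-DMb2 had the smallest adjusted p of the set at 4 weeks, with log2 differences of -0.54 ± 0.14 and -0.84 ± 0.20 (edgeR adjusted p = 0.122 and 0.11). H2-DMb1 differed by -0.13 ± 0.14, and H2-Oa was the member with a higher value, by 0.29 ± 0.31. Wild-type replicate 1 carried much of these differences. Without it Cd74 differed by -0.28 and H2-Aa by -0.31, Ciita and H2-Ab1 each by -0.85, H2-Eb1 by -0.83, and H2-DMb1 was higher by 0.09. Without it H2-DMa differed by -0.42 and H2-DMb2 by -0.72. Without wild-type replicate 2 the difference was -2.44 for Cd74, -2.14 for H2-Aa, -2.48 for H2-Ab1 and -2.45 for H2-Eb1, and these did not pass either (edgeR adjusted p = 0.0914, 0.213, 0.0976 and 0.0764). Over both ages together 0 of the 10 members passed in edgeR and 0 in DESeq2, where 0.996% of all genes did in edgeR, and 1 was lower at an unadjusted p under 0.05 (6.58% of all genes were).

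That library also stood apart in some genes of other antigen-presenting cells. The sum of Ccr7, Fscn1 and Ccl22, genes of migratory dendritic cells, was 94.5 CPM in 4-week wild-type replicate 1, 30.3 CPM in replicate 2, and 17.2 and 16.8 CPM in the libraries labelled knockout. The sum of the B cell genes Cd79a, Cd79b, Ms4a1 and Pax5 was 4.54, 0.821, 1.05 and 2.52 CPM in the same order. The whole list of 14 B cell markers, mostly Cd22, summed to 166 to 167 CPM in 4-week wild type. It summed to 159 to 165 CPM in 4-week libraries labelled knockout. Some of its genes were higher there: Ms4a1 was at 0.699 CPM in wild-type replicate 1 and 1.12 CPM in knockout-labelled replicate 2. Tnfrsf13c was at 0.0699 CPM in wild-type replicate 1 and 0.664 CPM in knockout-labelled replicate 1. Over the whole list of 15 dendritic cell markers, the summed level ran from 48.2 to 131 CPM in 4-week wild type and from 29.1 to 50.5 CPM in the libraries labelled knockout. Over both ages together, 3 of the 14 tested dendritic cell markers were called lower in the libraries labelled knockout and 0 higher (median log2 difference -1.29). Of all genes tested, 0.996% were called there in edgeR. Of 8 tested interstitial macrophage and monocyte markers, 1 was called lower over both ages and 0 higher (median log2 difference -0.93). At either age alone 0 of the markers of both lists were called. The part of dendritic and B cell genes in the 4-week differences was not tested.

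**Figure D3:**
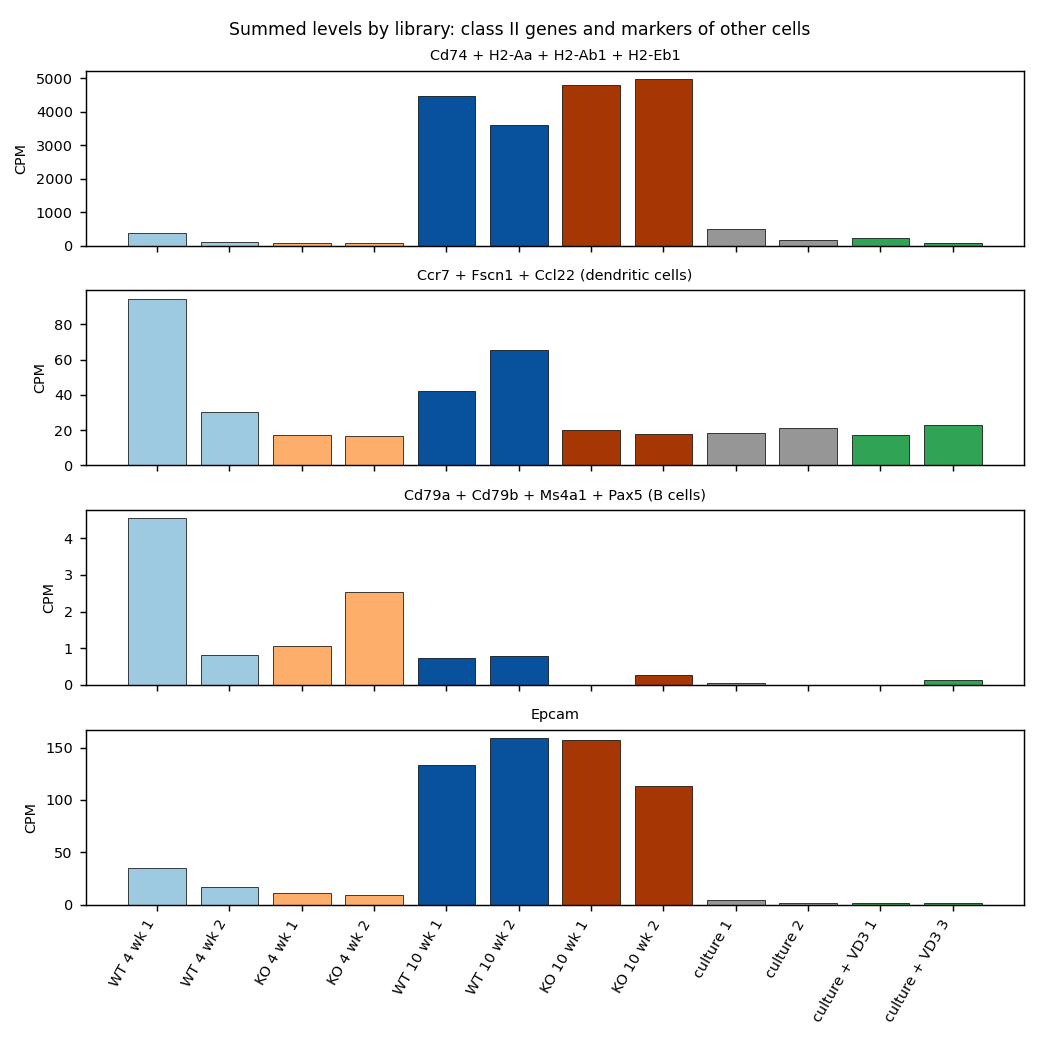
Summed CPM (linear axes from 0) of Cd74 with the 3 classical chains, of 3 dendritic cell genes, of 4 B cell genes, and of Epcam, in each of the 12 libraries. The class II sum was 3593 to 4977 CPM at 10 weeks and 69.4 to 376 CPM at 4 weeks, and the dendritic and B cell sums were highest in 4-week wild-type replicate 1.

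Beside the rise with age, these markers did not move as one. The dendritic cell list summed to 84.2 to 101 CPM in 10-week wild type and to 43.7 to 44.6 CPM in 10-week libraries labelled knockout, within the range of the 4-week libraries, and 0 or 1 of its 15 markers was at 0 in each fresh library. The 4 B cell genes summed to 0 to 0.791 CPM at 10 weeks, below every 4-week library. In this list, Cd22 alone averaged 215 CPM over the 12 libraries, and the next 2, Fcrla and Fcer2a, 0.595 and 0.341 CPM. Of 14 tested dendritic cell markers 1 passed, Clec9a, a receptor for dead cells on cross-presenting dendritic cells, which rose with age in wild type (log2 2.72 ± 0.34, edgeR adjusted p = 0.00297) and in the libraries labelled knockout (3.25 ± 0.40, edgeR adjusted p = 0.00083). It did so from 0.498 to 1.82 CPM at 4 weeks to 5.998 to 13.8 CPM at 10 weeks.

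Among type II epithelial markers, Epcam, an epithelial adhesion molecule, went up with class II, from 9.53 to 34.8 CPM at 4 weeks to 113 to 159 CPM at 10 weeks (edgeR adjusted p = 0.00492 in wild type and 0.000258 in the libraries labelled knockout). None of the other 9 markers of that list passed at either genotype, and Sftpc, the surfactant gene that defines these cells, was at 6.37 to 12.7 CPM at 4 weeks and 7.39 to 39.8 CPM at 10 weeks. T cell markers summed to 135 to 224 CPM at 4 weeks and 207 to 269 CPM at 10 weeks, mostly Cd2. That gene rose in the libraries labelled knockout (log2 0.73, edgeR adjusted p = 0.00277). Over all libraries, cultures included, Cd2 was at 120 to 246 CPM and Cd3e at no more than 1.35 CPM. Over the 10 tested T cell markers the median log2 difference with age was 0.43 in wild type and -0.73 in the libraries labelled knockout. Among the 14 alveolar macrophage markers, Car4, a carbonic anhydrase, fell with age in both (by 1.34 on the log2 scale in wild type and 1.07 in the libraries labelled knockout, edgeR adjusted p = 0.00184 and 0.00178). In the libraries labelled knockout the scavenger receptor gene Marco also fell, by 3.31, while Itgax and Siglec5 rose by 0.68 and 0.76 (edgeR adjusted p = 0.000196, 0.011 and 0.0204). A list of 12 interstitial macrophage and monocyte markers summed to 48.5 to 67.7 CPM in 4-week and 73.4 to 120 CPM in 10-week wild type. In the libraries labelled knockout it summed to 35.5 to 49.0 CPM and 35.0 to 56.0 CPM. Of its 8 tested genes 0 passed with age in either genotype (median log2 difference 0.78 and 0.53). The part of these genes and cells in the rise of class II was not tested.

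Few genes around class II in its pathway passed with age. Of 10 genes of the RFX, NF-Y and CREB complexes and their cofactors, 1 rose in wild type, Creb1 (log2 0.48 ± 0.10, edgeR adjusted p = 0.0393), and 0 in the libraries labelled knockout, where Nfyc came nearest (-0.33, edgeR adjusted p = 0.0624). Of 12 tested genes of interferon gamma signalling to Ciita and of its repressors, the receptor chain Ifngr1 rose in both (log2 0.54 and 0.52, edgeR adjusted p = 0.0457 and 0.022). Socs3, an inhibitor of cytokine signalling, rose in the libraries labelled knockout (log2 1.68 ± 0.34, edgeR adjusted p = 0.0112). Ifng itself had 0 counts in every library.

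Of 13 genes of antigen processing and class II turnover, 0 passed in wild type and 1 rose in the libraries labelled knockout, Ctss, the protease that trims the invariant chain (log2 0.59 ± 0.13, edgeR adjusted p = 0.0173). Of 6 tested costimulatory genes 0 passed with age in either genotype, with Icosl nearest in both (edgeR adjusted p = 0.0773 and 0.065). Of 15 class I genes 0 passed in either. H2-K1, a classical class I gene, differed by log2 0.20 in wild type (edgeR adjusted p = 0.236), and B2m, the class I light chain, by 0.39 in the libraries labelled knockout (edgeR adjusted p = 0.0541). Ciita, Cd74 and the classical chains thus had larger fold changes with age than any called gene of these lists. Of 2 tested neighbours in the class II region, H2-Eb2, a further beta chain gene at no more than 1.40 CPM, and Brd2, neither passed with age or with vitamin D3.

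**Figure D4:**
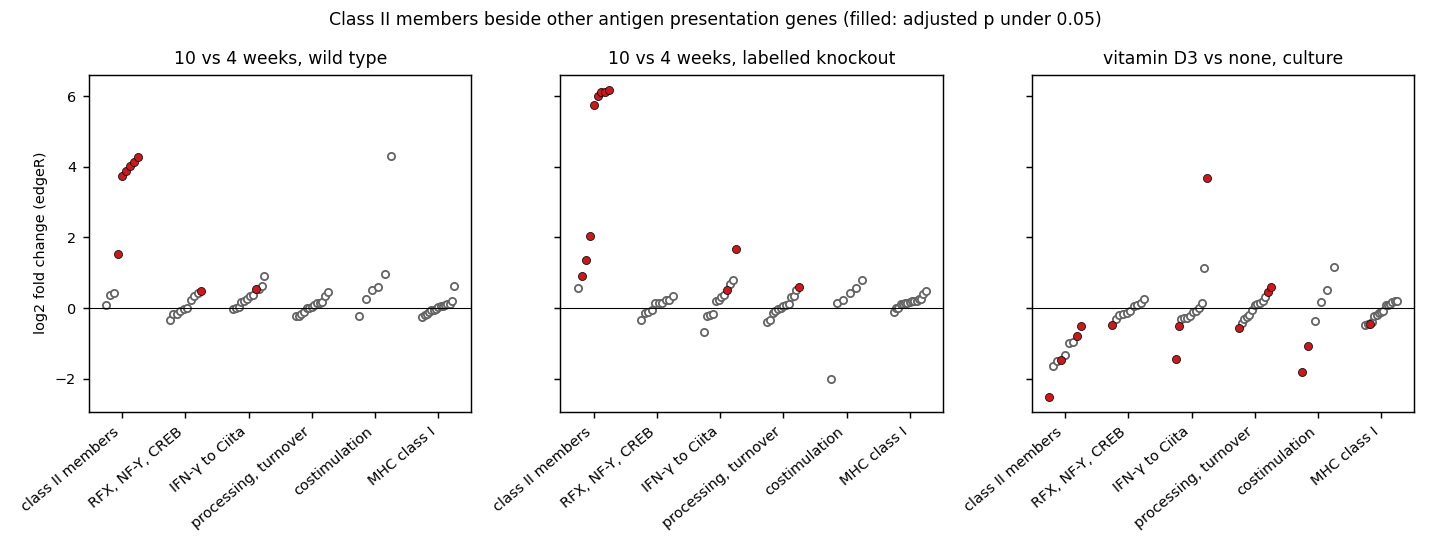
Log2 fold change (y axis) of each tested gene, in 3 comparisons, for 9 class II members (H2-Ob left out) and 5 other groups of antigen presentation genes; red points passed an adjusted p of 0.05 in edgeR. With age, class II points reach 4.27 in wild type and 6.17 in libraries labelled knockout, while the called points of other groups lie at or below 1.68; the open costimulation points at 4.30 and -2.00 are Tnfsf9.

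Vitamin D3 in culture was the contrast in which the ligand of VDR was supplied. All 10 members had lower values with vitamin D3 than without, and 4 fell, Ciita, H2-DMa, H2-DMb1 and H2-Oa, where 5.63% of all genes fell. Vdr itself was at 7.82 and 7.61 CPM in untreated cultures and at 72.1 and 42.4 CPM with vitamin D3.

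Ciita was at 2.08 and 1.13 CPM (38 and 14 counts) in untreated cultures and at 0.344 and 0.211 CPM (7 and 3 counts) with vitamin D3, without overlap. It fell by 2.50 ± 0.57 on the log2 scale, to 17.7% of the untreated level (edgeR adjusted p = 0.0162). Within the series of title numbers that holds replicate 1 of both groups the ratio was 16.6%, and within the other series 18.6%. The call was lost without any of 3 libraries: the edgeR adjusted p was 0.173 without untreated replicate 1, 0.0961 without vitamin D3 replicate 1 and 0.0673 without vitamin D3 replicate 3.

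The classical chains and Cd74 had lower values with vitamin D3 in both title series but did not pass. Cd74 was at 365 and 132 CPM untreated and at 176 and 73.6 CPM treated, or 48.1% and 55.9% within each series. H2-Aa was at 60.4 and 16.9 CPM and then at 22.4 and 8.57 CPM, or 37.1% and 50.6%. In both genes the untreated cultures differed so much from each other that the groups overlapped.

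H2-Ab1 was at 50.4 and 15.5 CPM untreated and at 16.1 and 7.02 CPM treated, and H2-Eb1 at 23.9 and 6.88 CPM and then at 5.95 and 3.93 CPM. Only H2-Eb1 of these 4 genes kept the groups apart. The log2 differences were -0.995 ± 0.60 for Cd74, -1.31 ± 0.61 for H2-Aa, -1.50 ± 0.56 for H2-Ab1 and -1.65 ± 0.57 for H2-Eb1 (edgeR adjusted p = 0.36, 0.225, 0.12 and 0.0942). Within the 2 title series H2-Ab1 was at 31.9% and 45.4% of the untreated level and H2-Eb1 at 24.9% and 57.2%. With untreated replicate 2 left out, the log2 difference was -2.09 for H2-Ab1 and -2.24 for H2-Eb1. With untreated replicate 1 left out, it was -0.072 for Cd74, -0.096 for H2-Aa, -0.39 for H2-Ab1 and -0.45 for H2-Eb1. Each of these fits set 1 untreated culture against vitamin D3 cultures of both title series, so the gap between the series enters the difference.

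Of the chaperones, H2-DMa went from 59.0 and 43.5 CPM to 30.5 and 28.5 CPM, and it fell by 0.80 ± 0.14 on the log2 scale (edgeR adjusted p = 0.00399). It was the 1 member whose call held with any library left out. H2-DMb1 went from 60.1 and 51.7 CPM to 40.1 and 38.4 CPM and fell by 0.51 ± 0.14 (edgeR adjusted p = 0.0362), a call lost without untreated replicate 1, vitamin D3 replicate 1 or vitamin D3 replicate 3 (edgeR adjusted p = 0.22, 0.146 and 0.128), in the fit of the cultures alone (0.0752) and with the conflicting 10-week labels exchanged (0.112). H2-Oa went from 1.31 and 1.30 CPM to 0.393 and 0.562 CPM and fell by 1.46 ± 0.39 (edgeR adjusted p = 0.0351). That call was lost with any 1 of the 4 cultures left out (edgeR adjusted p from 0.0514 to 0.265), in the fit of the cultures alone (0.189), with the 10-week labels exchanged (0.0513) and without a filter on low counts (0.0555).

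In all, 6 members kept the groups apart, where 24.7% of all genes were lower without overlap, but with 1 of the 4 cultures left out the number of members called lower ran from 1 to 5. It was 1 without untreated replicate 1, without vitamin D3 replicate 1 or without vitamin D3 replicate 3. In a fit of the cultures alone H2-DMa was again the 1 call (edgeR adjusted p = 0.0683 for Ciita), and with DESeq2 H2-Oa missed the threshold (adjusted p = 0.0625). H2-DMb2 had 4 to 10 counts in each culture and was lower without overlap, by log2 -0.97 ± 0.40, but did not pass (edgeR adjusted p = 0.267). H2-Ob had 1 count over all 4 cultures, too few for a difference to be seen at this depth. The median log2 difference of the members was -1.39, against 0 over all genes tested.

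**Figure D5:**
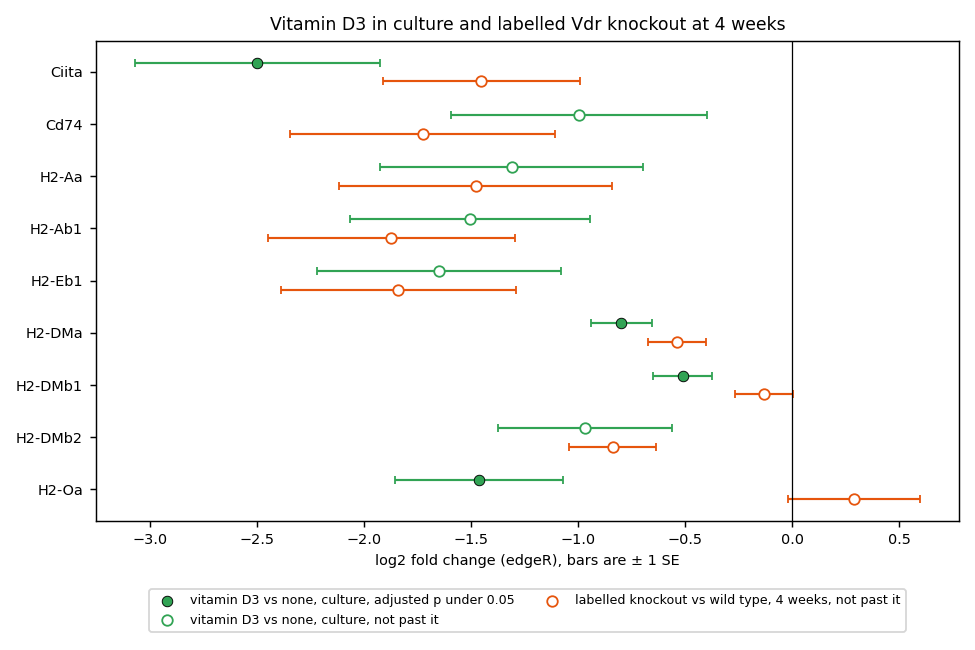
Log2 fold change (x axis) of 9 genes with vitamin D3 against none in culture (green) and in 4-week libraries labelled Vdr knockout against wild type (orange), with bars of ± 1 SE; filled points passed an adjusted p of 0.05 in edgeR. With vitamin D3 all 9 lie below 0, from -2.50 for Ciita to -0.51 for H2-DMb1, and 4 are filled; at 4 weeks 8 lie below 0 and none is filled.

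In the neighbouring pathway, vitamin D3 changed several regulators. Irf4, an interferon regulatory factor, was at 5.85 and 3.64 CPM untreated and at 84.6 and 39.2 CPM with vitamin D3, a rise of 12.8-fold (log2 3.68 ± 0.44, edgeR adjusted p = 0.000321). Prdm1, which encodes the Ciita repressor Blimp-1, fell by 1.43 on the log2 scale (edgeR adjusted p = 0.00771), and Jak2, a kinase of the interferon gamma receptor, by 0.51 (edgeR adjusted p = 0.0241). Creb1 fell by 0.47 (edgeR adjusted p = 0.0135), the 1 called gene of 10 in its list.

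Of the 13 processing genes, the protease gene Ctsb and the endosomal GTPase gene Rab7 rose (log2 0.60 and 0.45, edgeR adjusted p = 0.0056 and 0.0108). March1, the ubiquitin ligase that removes class II from the surface, fell by 0.57 (edgeR adjusted p = 0.0178). Among 6 costimulatory genes, Icosl fell by 1.81 and Pdcd1lg2, the PD-L2 gene, by 1.08 (edgeR adjusted p = 8.93e-05 and 0.0138). Of 15 class I genes 1 fell, B2m, by 0.45 (edgeR adjusted p = 0.0269). The dendritic cell list summed to 38.4 to 43.4 CPM untreated and to 30.3 to 33.5 CPM with vitamin D3, and the 4 B cell genes to at most 0.140 CPM in any culture. Of the 14 alveolar macrophage markers 3 rose, Car4 by log2 3.24 among them, and 3 fell, Fabp4 by 1.56 among them (edgeR adjusted p = 3.17e-05 and 0.00404).

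Culture itself was compared with fresh wild-type cells, with the caution that the age of the mice behind the cultures is not known. Against 10-week cells all 10 members were lower in untreated culture and passed, where 21.2% of all genes were called lower. H2-Eb1 differed by log2 -4.33 ± 0.54, H2-DMb2 by -4.27 ± 0.27 and Ciita by -4.24 ± 0.35, and the smallest difference was that of H2-Oa, -1.41 ± 0.33 (edgeR adjusted p = 6.51e-05, 4.6e-07, 3.13e-06 and 0.00476). Without untreated replicate 1 the difference was -4.29 for Cd74, -5.11 for H2-Aa, -5.18 for H2-Ab1 and -5.52 for H2-Eb1, and without replicate 2 it was -3.27, -3.48 and -3.73 for the chains. The main values were -3.37 for Cd74, -3.90 for H2-Aa and -4.08 for H2-Ab1. H2-Ob held 41 counts in 10-week wild type and 1 in untreated culture, a ratio of CPM of 38.1 with an exact 95% interval of 6.47 to 1542 that covers counting error only. Its call was lost without either untreated culture and without 10-week wild-type replicate 1 (edgeR adjusted p = 0.135, 0.05004 and 0.132).

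Against 4-week wild type, 3 of the 10 members were called lower in untreated culture, where 19.5% of all genes were. H2-DMb2 was at 10.7 to 12.6 CPM in those fresh cells and at 0.492 and 0.810 CPM in untreated culture, or 18.3-fold lower (edgeR adjusted p = 6.04e-07). H2-DMa was 4.84-fold lower (edgeR adjusted p = 5.34e-07) and H2-Oa 1.98-fold lower (edgeR adjusted p = 0.0343), a call lost when any single library of either group was left out. Ciita, Cd74 and the classical chains overlapped between these groups, with log2 differences from -0.58 for H2-Eb1 to 0.78 for Cd74 (edgeR adjusted p = 0.385 and 0.323). H2-DMb1 differed by -0.35 ± 0.14 (edgeR adjusted p = 0.0595).

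Markers of cell types differed in the same comparisons. Of 14 dendritic cell markers tested, 9 were called lower in untreated culture than in 10-week wild type and 0 higher (median log2 difference -2.83), and 7 were lower and 1 higher, Clec9a, against 4-week wild type (median -2.10). The whole list summed to 38.4 to 43.4 CPM in untreated culture, 84.2 to 101 CPM in 10-week and 48.2 to 131 CPM in 4-week wild type. Of 10 type II epithelial markers, 7 were called lower and 1 higher, Lyz1, against each age (medians -2.68 and -2.72), while their sum was 3695 to 3794 CPM in untreated culture and 1669 to 2608 CPM in fresh wild type. The macrophages' own markers changed as well. Of 14 alveolar macrophage markers, 7 were called lower and 4 higher in untreated culture than in 10-week wild type. Against 4-week wild type 6 were called lower and 4 higher. Of all genes tested, 21.2% and 19.5% were called lower in these 2 comparisons. The part of these cells and genes in the class II differences was not tested.

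Set in order by mean level, the groups ran alike for Ciita and for Cd74 and the classical chains at the top, and apart below. The 10-week libraries labelled knockout came first (41.9 ± 6.4 CPM of Ciita, SD, n = 2) and 10-week wild type second (31.5 ± 8.51). For Ciita, 4-week wild type (2.20 ± 1.13) and untreated culture (1.61 ± 0.669) overlapped, while the 4-week libraries labelled knockout (0.765 ± 0.0915) and then the cultures with vitamin D3 (0.277 ± 0.0944) lay lower without overlap. Cd74 was lowest in the 4-week libraries labelled knockout (43.9 ± 2.86 CPM) and not in the cultures with vitamin D3 (125 ± 72.1 CPM), which overlapped with 4-week wild type (146 ± 131 CPM). For H2-DMa, H2-DMb1, H2-DMb2 and H2-Oa, both cultures were below all fresh groups. For H2-Ob the means of both cultures also came last, but untreated culture overlapped with the 4-week libraries labelled knockout.

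Likeness to the class II pattern was measured as the Pearson correlation, over the 12 libraries, of log2(CPM + 1) with the mean standardised level of Cd74, H2-Aa, H2-Ab1 and H2-Eb1. Ciita, which is no part of that mean, had r = 0.98 and H2-DMb1 0.95, whereas H2-DMa, H2-DMb2, H2-Oa and H2-Ob had 0.64, 0.61, 0.62 and 0.69. Among 9709 other genes with a mean of at least 5 CPM, the closest were Dennd5a (r = 0.96), Mllt4 (0.95), Tchh (0.94), Fzd8, Hivep1, Tmx4 and Eml6 (0.93 each), and Fyn, Synj1 and Ddx6 (0.92 each). The points share their libraries, and the 4 libraries of 10 weeks stand apart from the rest in each, so r describes mostly that gap. Of the 10, Mllt4 had the largest rise with age, log2 1.97 ± 0.23 in wild type and 2.29 ± 0.23 in the libraries labelled knockout (edgeR adjusted p = 0.00214 and 0.000252), from 27.3 to 46.5 CPM at 4 weeks to 122 to 210 CPM at 10 weeks. Dennd5a, the closest of all, was at 87.0 to 110 CPM at 4 weeks and at 125 to 136 CPM at 10 weeks, so a high r did not mean a like size of change.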

How the data were processed

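RNA-seq of 12 libraries was analysed from a table of raw counts per gene that the authors deposited for 23413 genes. The submitters' processing notes name TopHat2, edgeR and mm9. Versions, counter, annotation and strand setting were not given in the sources used here. Reads of antisense or overlapping genes therefore cannot be told apart. A second file deposited by the authors gives log2 values for 10631 genes, log2(CPM + 1) by its column sums. It holds 6 of the members and was used for an alternative only, with its 10-week columns taken by the group their names state.

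The members, gene lists and tests were chosen with earlier results of these data known. Genes were kept with filterByExpr (minimum count 10, minimum total 15), which left 12748 genes and all 10 members. Counts were scaled by TMM and tested by quasi-likelihood in edgeR 4.0.16 (R 4.3.3). The 12 libraries shared 1 model with a coefficient for each group, which left 6 residual degrees of freedom. Benjamini-Hochberg adjustment ran over all genes tested, and 0.05 was the threshold. Errors are SE of log2 fold changes or SD over 2 libraries. The code was tested on simulated data. Groups of 2 limit the precision of every value.

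The text names all members, up to 4 called genes of each pathway list by smallest p (otherwise up to 2), the 10 genes most like the class II mean, and the most abundant cell type markers; some markers are not reported here. The pathway lists held RFX, NF-Y and CREB genes, interferon gamma signalling, antigen processing, costimulation, class I presentation and other class II genes. The marker lists are those given in the text, for alveolar macrophages, dendritic cells, B cells, interstitial macrophages and monocytes, T cells and type II epithelium. As alternatives, DESeq2 1.42.0 (Wald test), its size factors, library totals, no filter or a strict one (5 CPM in 2 libraries), the compared groups alone, the replicate number as a block, the series of title numbers as a covariate, exchange of the conflicting 10-week labels, limma 3.58.1 on the log2 table, and each library left out were tried. Whether libraries of the same block deviated together was checked (in culture, of the same title series), and no label ties the numbers to shared animals.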

Additional observations from a re-analysis of the deposited data

How the results depend on the processing

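With 2 libraries a group, 1 library can decide a call. Over the alternatives, the rises with age in the libraries labelled knockout kept direction and threshold throughout (8 of 10 members with each library left out), and those in wild type gave 5 to 6 members. Without a filter on low counts more members passed: 1 higher in the 10-week libraries labelled knockout, 7 lower at 4 weeks, 4 lower over both ages, 6 in the interaction, 7 lower with vitamin D3, and 2 higher and 5 lower in untreated culture against 4-week wild type. The cause was not tested. At 4 weeks DESeq2 called 1 lower, and the fit of the compared groups alone 4. With vitamin D3 that fit called 1, the exchange of 10-week labels 2, limma on the deposited log2 values 2, and leaving out a library 1 to 5. The log2 table holds 6 members and called 6 of them both for any difference and in untreated culture against 10-week wild type. Leaving out a library gave 0 to 1 higher in untreated culture against 4-week wild type (1 without 4-week wild-type replicate 1) and 2 to 3 lower. Directions turned as follows. At 10 weeks, with labels exchanged, the log2 difference was -0.0608 for Ciita, -0.147 for Cd74, -0.141 for H2-Aa, -0.0423 for H2-Eb1, -0.0451 for H2-DMa, -0.0517 for H2-DMb1 and -0.0497 for H2-DMb2. For H2-DMa it was also -0.0033 with library totals and -0.00436 in the log2 table. With 1 library left out it ran from -0.0451 (knockout-labelled replicate 1) to 0.0807. For H2-DMb1 at 4 weeks that range was -0.325 to 0.0895, the latter without wild-type replicate 1. The interaction of H2-Oa was -0.154 with labels exchanged and ran from -0.0422 (without 10-week knockout-labelled replicate 2) to 0.296. H2-DMb2 with age in wild type ran from -0.0277 (without 4-week replicate 2; -0.0237 without 10-week replicate 1) to 0.198.

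The replicate numbers are not known to pair libraries. In culture, where the numbers differ, the blocks were the 2 series of title numbers. Deviations of libraries in the same block correlated at 0.17 at 10 weeks, -0.18 at 4 weeks and 0.36 in culture. With vitamin D3, the replicate block gave 5 members lower: H2-Ab1 and H2-Eb1 (log2 -1.45 and -1.57, edgeR adjusted p = 0.0101 and 0.049) joined, and H2-Oa was not called (0.0673). H2-Oa was also not called in untreated culture against 4-week wild type (0.0671). With the replicate number as a block, 1 member was called lower at 4 weeks (H2-Ab1, log2 -1.74, edgeR adjusted p = 0.0245) in place of 0. With the 4-week numbers crossed in the block, an alternative chosen after seeing the data, 3 were called lower at 4 weeks and 1 in the interaction.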
